A study of Mus musculus with 8 samples.

Results

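Kit, Kitl, Cxcr4 and Cxcl12 are 2 receptors and their 2 ligands that guide and sustain mouse germ cells on their way to the gonad. They were chosen by gene symbol, current or older, from the annotated probes of the arrays. Each had 1 probe, so the set holds 4 of 23473 probes and 4 of 16390 named genes. They were measured on 8 one-colour arrays, 2 for each of 4 groups, in mouse cells that all carry a Nanog-GFP reporter: E11.5 PGC (primordial germ cells, which become eggs and sperm, from embryos of that stage), Day3 and Day6 (the same kind of cells cultured for 3 and 6 days), and embryonic germ (EG) cells, pluripotent cells derived from germ cells in culture. All but the E11.5 PGC samples are named with the inhibitor set 2i+A83, listed as PD325901 at 1 µM (against MEK), CHIR99021 at 3 µM (against GSK3) and A83-01 at 250 nM (against Activin and Nodal receptors). The protocol text, identical on all samples, names a Knockout DMEM medium with KSR at 15%, LIF and bFGF, and Kit ligand is not among the supplements it lists. Cells were sorted during culture as candidates for pluripotency. The labels give neither the gate nor whether the arrays of a group come from separate embryos, cultures or EG lines, so p-values measure only the spread between these samples, which may be technical.

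Kit is a receptor tyrosine kinase of the cell surface. Its ligand, made by somatic cells along the migration route and in the gonad as a membrane-bound and a soluble form, supports survival, division and movement of primordial germ cells, and mice that lack either gene product have few germ cells. Cxcr4 is a G protein-coupled receptor on migrating germ cells. Its ligand Cxcl12, a chemokine also called SDF-1, is secreted by the body wall and the genital ridges and attracts cells that carry the receptor, which are then held in the gonad.

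The windows around the annotated starts of the 4 genes are shown because Cxcr4 and Cxcl12 were low together in cultured and EG cells, while Kit and Kitl followed other courses. Each runs from 250 bases before to 50 bases after a start in RefSeq's annotation of mouse build GRCm38.p6, written 5′ to 3′ on the gene's strand. Capitals mark GC boxes (GGGCGG, or CCGCCC on the other strand) and TATA boxes (TATAAA, or TTTATA on the other strand), and overlapping matches were counted separately.
Kit, chr5:75574737-75575036, plus strand: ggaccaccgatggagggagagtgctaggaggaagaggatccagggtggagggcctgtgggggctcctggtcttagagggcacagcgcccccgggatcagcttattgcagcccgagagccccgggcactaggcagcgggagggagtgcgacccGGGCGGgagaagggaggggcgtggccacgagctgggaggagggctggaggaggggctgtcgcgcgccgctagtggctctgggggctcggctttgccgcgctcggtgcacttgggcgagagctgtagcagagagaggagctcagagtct
Kitl, chr10:100015571-100015870, plus strand: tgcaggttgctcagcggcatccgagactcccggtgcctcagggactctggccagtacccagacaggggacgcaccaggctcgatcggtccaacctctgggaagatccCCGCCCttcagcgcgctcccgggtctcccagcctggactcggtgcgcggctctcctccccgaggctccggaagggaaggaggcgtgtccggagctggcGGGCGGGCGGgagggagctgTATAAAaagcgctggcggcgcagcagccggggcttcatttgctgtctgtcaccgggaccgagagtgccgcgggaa
Cxcr4, chr1:128592250-128592549, minus strand: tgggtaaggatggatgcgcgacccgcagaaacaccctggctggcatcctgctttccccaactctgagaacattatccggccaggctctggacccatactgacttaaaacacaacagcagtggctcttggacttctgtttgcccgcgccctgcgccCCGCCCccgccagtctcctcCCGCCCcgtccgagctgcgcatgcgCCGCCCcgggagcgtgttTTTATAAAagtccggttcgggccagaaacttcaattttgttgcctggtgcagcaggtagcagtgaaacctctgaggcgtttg
Cxcl12, chr6:117168285-117168584, plus strand: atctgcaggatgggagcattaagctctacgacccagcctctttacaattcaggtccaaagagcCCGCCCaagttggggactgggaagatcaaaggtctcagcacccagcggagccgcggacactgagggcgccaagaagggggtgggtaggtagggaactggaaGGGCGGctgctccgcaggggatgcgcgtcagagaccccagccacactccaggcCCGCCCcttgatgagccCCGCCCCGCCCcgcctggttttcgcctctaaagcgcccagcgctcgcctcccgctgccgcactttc
All 4 windows hold a GC box, a motif found in 35.7% of 32851 promoter windows of the same length. Cxcl12 holds 5, Cxcr4 and Kitl 3 each and Kit 1. The TATA letters, found in 13.6% of the windows, occur in Kitl and in Cxcr4 and not in Kit or Cxcl12. The windows are rich in CpG, with 20 CpG in Kit, 28 in Kitl, 20 in Cxcr4 and 20 in Cxcl12, against a median of 7 over all windows. Their GC content is 69%, 68.7%, 59.3% and 64.7% in that order, against a median of 52.7%. These matches describe letters and show no binding. Annotation also lists a Kit start 4 bases further on, whose window shares nearly all of the sequence shown. The annotated Kitl gene begins at chr10:100015615, inside the window shown and upstream of the start that the window is set around.

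Values are spot intensity on the authors' scale, on which the median of every array lies between 19.99 and 20.01. Each array measured 21126 to 22404 of the probes. An intensity of 4.24 bounds the dimmest 25% of probes and is used here as the limit below which a level is called dim. Changes are differences of mean log2 intensity with their standard error, tested with limma on all 8 arrays, and a gene is called where the Benjamini-Hochberg adjusted p over all probes tested is under 0.05. The array names fall into 2 series. Series A holds both EG arrays and replicate 1 of the other 3 groups, and series B holds replicate 2 of those groups. For this reason, changes within a series are given for the 4 genes, and values or counts from a fit with the array series as a block are given where that fit changed a call. Among all the gene lists read here, 0 of the calls made without the block were lost with it. With it, 8.34% of all probes were called in either direction at Day3 against E11.5 PGC, 23.8% at Day6 and 23.6% in EG cells, and blocked counts of a list are to be read against these shares. Without the block, 1.33% of all probes rose and 0.754% fell at Day3 against E11.5 PGC. At Day6 4.34% rose and 4.28% fell, and in EG cells 5.57% rose and 5.61% fell. Unblocked counts of a list are to be read against these. With 2 arrays a group, precision is limited by their number, and levels are compared only within a probe. Examples from a marker list are the 3 genes with the highest mean log2 intensity over the arrays.

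The labels were set against marker genes first. All 14 germ cell markers had a probe, and their summed intensity was 18858 and 11295 on the E11.5 PGC arrays, 9117 and 7701 on those of Day3, 1854 and 4342 on those of Day6, and 2937 and 2573 on those of EG cells. Dppa3, Dazl and Tfap2c are examples. Against E11.5 PGC, 1 of the 14 fell at Day3, 4 at Day6 and 6 in EG cells, Kit included, and 0 rose. With the block 5, 7 and 7 fell. The 12 pluripotent cell markers, Dppa5a, Nanog and Zfp42 among them, summed to 25818 and 23219 on the E11.5 PGC arrays, 34417 and 24591 on those of Day3, 34505 and 41853 on those of Day6, and 46481 and 54956 on those of EG cells. Of these, 4 rose at Day3, 7 at Day6 and 6 in EG cells, and 1, Utf1, fell at Day6. With the block 5 rose at Day3, 8 at Day6 and 9 in EG cells, and Utf1 was also called lower at Day3 (log2 change -1.92, adjusted p = 0.0197) and in EG cells (-1.51, 0.0233), as was Dppa4 at Day6 (-1.58, 0.0174). In such bulk RNA, fewer cells of a type and less RNA per cell cannot be told apart.

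Kit transcript was bright in every group and lowest in EG cells. Its intensity was 404 and 331 on the E11.5 PGC arrays, 324 and 251 on those of Day3, 136 and 313 on those of Day6, and 63.3 and 97.6 on those of EG cells. Both EG arrays lay below all 6 other arrays. The Day3 values lay just under those of E11.5 PGC, with no overlap. One Day6 array lay below both Day3 arrays and the other between them, and the 2 Day6 arrays differed 2.31-fold.

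**Figure D1:**
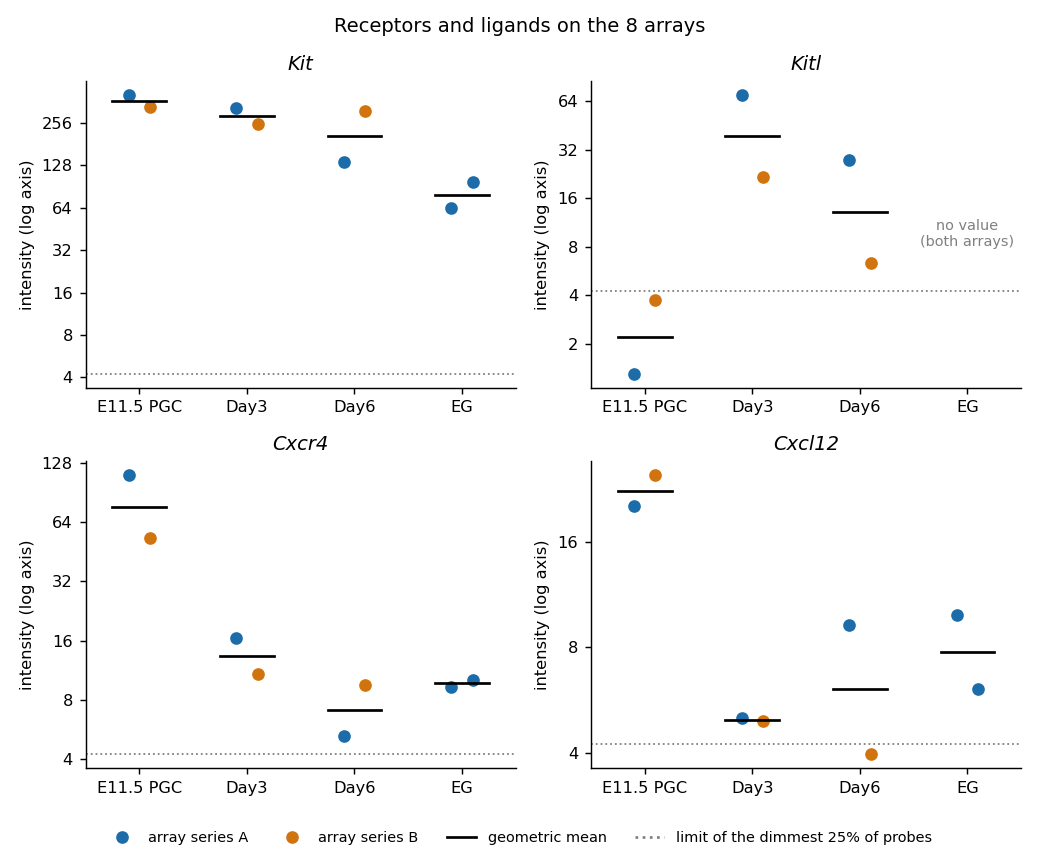
Intensity of Kit, Kitl, Cxcr4 and Cxcl12 on each array (log axes, a scale of its own per panel), by group. Points are arrays, coloured by array series, bars are geometric means and the dotted line is the limit of the dimmest 25% of probes, at 4.24. Kit was lowest in EG cells, Cxcr4 and Cxcl12 were highest in E11.5 PGC, and Kitl was dim in E11.5 PGC and had no value in EG cells.

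In EG cells Kit fell 4.65-fold against E11.5 PGC (log2 change -2.22 ± 0.45, 95% interval -3.27 to -1.16, adjusted p = 0.0245, n = 2 arrays per group). The fit blocked by series gave -2.13 (adjusted p = 0.0213), and within series A alone it was -2.36. The call rests on all 4 arrays of the comparison: without any one of them the change lay between -2.53 and -1.91, with adjusted p between 0.109 and 0.169. Of the 20761 probes tested for EG cells, 360 had a lower change than Kit. The median change of all probes was -0.16.

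At the culture days Kit was not called. The change at Day3 against E11.5 PGC was -0.36 ± 0.45 (adjusted p = 0.822) with a 95% interval from -1.41 to 0.70. The Day6 change was -0.83 ± 0.45 (adjusted p = 0.322), and it differed between the series, at -1.57 in series A but -0.08 in B. With the block and without Day6 replicate 2, Kit was called lower at Day6, at -1.59 (adjusted p = 0.0361). EG cells against Day3 gave -1.86 ± 0.45 (adjusted p = 0.103, and 0.0795 with the block), and EG cells against Day6 gave -1.39 ± 0.45 (adjusted p = 0.258, and 0.175 with the block). In the order of levels, E11.5 PGC, Day3, Day6 and EG, no 2 neighbours therefore differed at the threshold.

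The genes whose log2 intensity followed Kit most closely over the 8 arrays, among 1582 named probes with a group range of at least 2 log2 units, were Dazl (Pearson r = 0.966), Ubxn2b (0.965) and Wars2 (0.955). Dazl, a germ cell RNA-binding protein and marker, read 2024 and 1867 on the E11.5 PGC arrays, 999 and 1971 on those of Day3, 188 and 1024 on those of Day6, and 39.2 and 124 on those of EG cells. Like Kit, it was lower on replicate 1 than on replicate 2 at Day6 and lowest in EG cells, while at Day3 replicate 1 was the lower array for Dazl and the higher one for Kit. These correlations are over arrays that share groups and series, and describe likeness only.

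Kitl, the ligand gene of Kit, was dim in E11.5 PGC, was measured above the dim limit at both culture days and had no value in EG cells. Its intensity was 1.30 and 3.76 on the E11.5 PGC arrays, 70.2 and 21.7 on those of Day3 and 27.7 and 6.31 on those of Day6, and both EG entries of the table are empty. All 4 culture arrays exceeded both E11.5 PGC arrays, and the highest E11.5 PGC value lay under the dim limit of 4.24. The replicates disagreed widely, by 2.89-fold in E11.5 PGC, 3.24-fold at Day3 and 4.39-fold at Day6. The reason for empty cells is not given in the sources used here. Probes with an empty cell were dim where they were measured, with a median intensity of 1.95 against 27.6 for probes measured on all arrays, so no level or fold is given for Kitl in EG cells.

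The Kitl change at Day3 against E11.5 PGC was 4.14 ± 0.93 (95% interval 1.89 to 6.39, adjusted p = 0.0999) and was not called. In the fit blocked by series Kitl rose by the same 4.14 and was called (adjusted p = 0.0494), with the replicate number as a block it was not (0.0664), and on the scale of log2(intensity + 2) the change was 3.24 (0.0880). The blocked call was lost without either Day3 array (adjusted p = 0.257 and 0.174), either Day6 array (0.0527) or either EG array (0.0625). Within the series the change was 5.75 in A and 2.53 in B. These folds rest on dim E11.5 PGC values and move with the added constant. Only 34 of 20678 probes had a higher change at Day3. At Day6 the change against E11.5 PGC was 2.58 ± 0.93 (adjusted p = 0.157, and 0.0907 with the block), at 4.41 in series A but 0.75 in B. Without E11.5 PGC replicate 2 the blocked fit called it, at 4.30 (adjusted p = 0.00724). Day6 against Day3 gave -1.56 ± 0.93 (adjusted p = 0.778), lower within both series at -1.34 and -1.78.

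Markers of cells that make Kit ligand were read beside these values. Of 19 gonadal somatic cell markers, 17 had a probe, and their summed intensity was 104 and 134 on the E11.5 PGC arrays, 82.5 and 87.8 on those of Day3, 98.0 and 98.1 on those of Day6, and 99.7 and 105 on those of EG cells. The sum adds measured values only, and it was lowest at Day3, where 2 and 3 of the genes were empty. Of these 17 genes, 5 to 10 were dim and 0 to 4 empty on each array, and examples are Nr2f2, Sox9 and Cyp11a1, with Nr2f2 between 15.4 and 25.3 on every array. Against E11.5 PGC, 13 of them could be tested at Day3, 13 at Day6 and 16 in EG cells. Empty cells left out Nr5a1, Gata4, Hsd3b1 and Tcf21 at Day3. They left out Nr5a1, Amh, Dhh and Tcf21 at Day6, and Lhx9 in EG cells. Of those tested, Lhx9 fell at Day6 (log2 change -2.47 ± 0.45, adjusted p = 0.0262, lost without any array of the 2 groups), and 0 passed the test at Day3 or in EG cells. With the block Lhx9 also fell at Day3 (-1.95, adjusted p = 0.0337), and Fst, a secreted binder of activin, rose at Day6 (1.38, 0.0377). In EG cells the block gave Cyp11a1 (1.22, 0.0383) and Dhh (1.11, 0.0471) as higher and Tcf21 (-1.75, 0.0305) as lower. Dhh was dim on both E11.5 PGC arrays and Tcf21 on both EG arrays.

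The 15 fibroblast and mesenchyme markers moved differently. Their sum was 227 and 288 on the E11.5 PGC arrays, 467 and 589 on those of Day3, 3026 and 297 on those of Day6, and 1196 and 506 on those of EG cells. Day6 replicate 1 stood apart, with S100a4 at 1335 against 13.2 on Day6 replicate 2, and it was also the Day6 array with the higher Kitl. The order was not the same elsewhere: Kitl was higher on Day3 replicate 1, whose marker sum was the lower of the pair, and had no value in EG cells, whose sums rest on S100a4 (808 and 190) and Thy1 (96.6 and 71.0). Without those 2 genes the sums of the other 13 were 218 and 284 on the E11.5 PGC arrays, 417 and 571 on those of Day3, 944 and 273 on those of Day6, and 292 and 245 on those of EG cells. At Day3 both arrays exceeded both E11.5 PGC arrays with and without the 2 genes, which were left out after seeing the data. One marker, the matrix proteoglycan gene Dcn, rose at Day3 (4.22 ± 0.76, adjusted p = 0.0436, lost without any array of E11.5 PGC, Day3 or EG), at 75.9 and 173 against 4.53 and 8.31 on the E11.5 PGC arrays. None passed the test at Day6 or in EG cells without the block. With it S100a4 (5.76, adjusted p = 0.0245), Thy1 (4.88, 0.0234) and Col5a1 (2.00, 0.0341) rose at Day6 and S100a4 in EG cells (5.72, 0.0322). The part of such cells in the Kitl values was not tested.

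**Figure D2:**
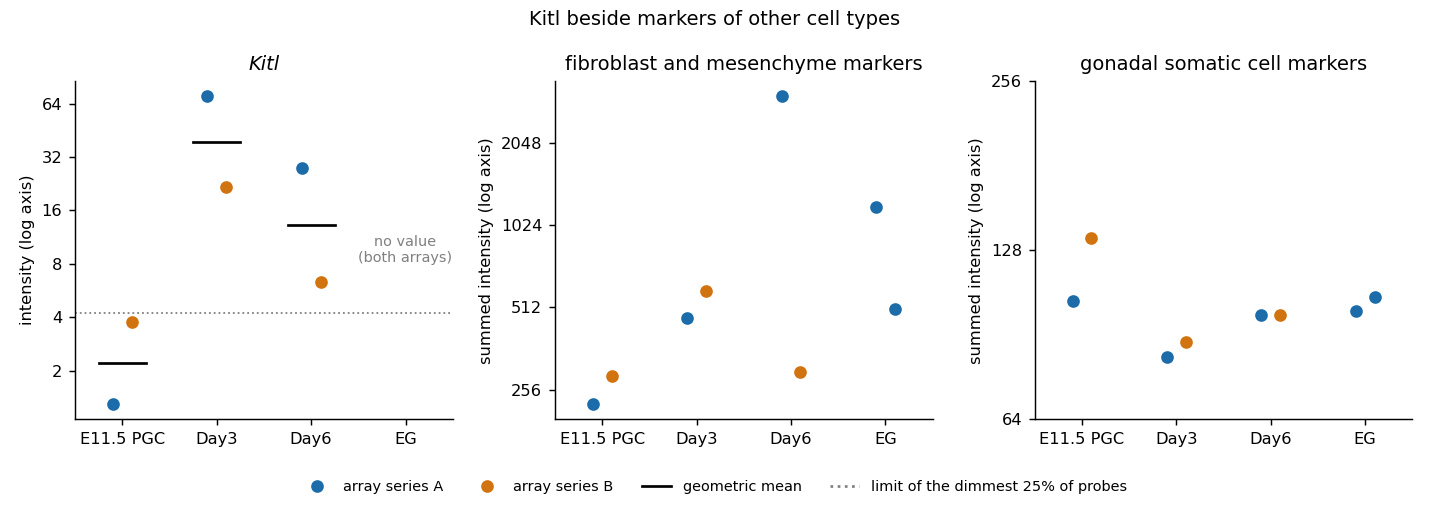
Intensity of Kitl and summed intensity of fibroblast and mesenchyme markers (15 genes) and of gonadal somatic cell markers (17 genes) on each array (log axes, which start above 0). Points are arrays, coloured by array series. The somatic sum stayed between 82.5 and 134 on all 8 arrays, while the fibroblast sum reached 3026 on Day6 replicate 1. The somatic sum adds measured values only, and 5 to 10 of its 17 genes were dim and 0 to 4 empty on each array.

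Over the 6 arrays that measured it, Kitl was followed most closely by Mlkl (Pearson r = 0.984), Tnfrsf12a (0.971) and Oasl1 (0.967), among 1583 candidates. Tnfrsf12a, the receptor of the cytokine TWEAK, read 55.6 and 83.6 on the E11.5 PGC arrays, 364 and 218 on those of Day3, 382 and 121 on those of Day6, and 91.3 and 74.3 on those of EG cells. It was thus higher on replicate 1 of both culture days, as Kitl was. Mlkl was dim on 5 of the 8 arrays, both E11.5 PGC arrays among them.

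Cxcr4, the chemokine receptor, fell in all 3 cultured groups against E11.5 PGC. Its intensity was 111 and 53.0 on the E11.5 PGC arrays, 16.6 and 10.8 on those of Day3, 5.26 and 9.56 on those of Day6, and 9.35 and 10.1 on those of EG cells. The lower E11.5 PGC array exceeded the highest of the 6 others, so E11.5 PGC overlapped no other group. Among Day3, Day6 and EG cells the values lay between 5.26 and 16.6.

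Against E11.5 PGC the fall of Cxcr4 was 5.73-fold at Day3 (log2 change -2.52 ± 0.46, adjusted p = 0.0455), 10.8-fold at Day6 (-3.43 ± 0.46, adjusted p = 0.00704) and 7.88-fold in EG cells (-2.98 ± 0.46, adjusted p = 0.0111). The 3 comparisons share the E11.5 PGC arrays. All 3 calls held in the fit blocked by series (adjusted p = 0.0229, 0.00380 and 0.00751). Within the series the change was -2.74 in A and -2.30 in B at Day3, -4.40 and -2.47 at Day6, and -3.51 in EG cells, which have arrays in A only. The Day6 call held without any single array. The Day3 call was lost without either E11.5 PGC array (adjusted p = 0.229 and 0.122), either Day3 array (0.109 and 0.193) or either EG array (0.123), and the EG call without E11.5 PGC replicate 1 (0.0584) or either EG array (0.0908 and 0.0951). With the block, the Day3 call was lost without E11.5 PGC replicate 1 (0.118) or either Day3 array (0.115 and 0.166), and the EG call without E11.5 PGC replicate 1 (0.0714).

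Between the cultured groups no Cxcr4 difference was called. Day6 against Day3 was -0.91 ± 0.46 (95% interval -2.01 to 0.18, adjusted p = 0.680), at -1.65 in series A but -0.17 in B. EG cells against Day3 gave -0.46 (interval -1.55 to 0.63, adjusted p = 0.708), and EG cells against Day6 gave 0.46 (interval -0.64 to 1.55, adjusted p = 0.756). From high to low the levels ran E11.5 PGC, Day3, EG and Day6, and only the step from E11.5 PGC to Day3 passed the test.

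Markers of 2 further cell types that carry Kit or Cxcr4 were read beside the receptors, and single markers moved in both directions. The 10 endothelium markers, Egfl7, Pecam1 and Kdr among them, summed to 554 and 694 on the E11.5 PGC arrays, 504 and 446 on those of Day3, 357 and 372 on those of Day6, and 631 and 605 on those of EG cells. Of those tested against E11.5 PGC, 0 of 9 rose and 1 fell at Day3, 1 rose and 1 fell at Day6, and 1 rose and 2 fell in EG cells, and with the block the counts were 0 and 1, 1 and 2, and 2 and 3. The marker that fell in all 3 was Cldn5, a tight junction protein gene. It read 105 and 80.7 on the E11.5 PGC arrays, 9.99 and 14.1 on those of Day3, 4.11 and 6.87 on those of Day6, and 13.9 and 12.0 on those of EG cells. Its course was close to that of Cxcr4, with E11.5 PGC above all other arrays, at log2 changes of -2.96 ± 0.36 (adjusted p = 0.0139), -4.12 ± 0.36 (0.00206) and -2.84 ± 0.36 (0.00586). The Day3 call was lost without any array of the 2 groups and the EG call without either EG array.

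Pecam1, an adhesion molecule of endothelium that germ cells also carry, read 184 and 377 on the E11.5 PGC arrays, 117 and 203 on those of Day3, 61.2 and 138 on those of Day6, and 44.1 and 60.7 on those of EG cells. It fell in EG cells (-2.35 ± 0.53, adjusted p = 0.0348, lost without any array of the 2 groups) and, with the block, at Day6 (-1.52, 0.00687). The angiopoietin receptor gene Tek rose at Day6 (2.75 ± 0.58, adjusted p = 0.0316), its E11.5 PGC values being dim, and Egfl7 rose in EG cells (1.44 ± 0.34, 0.0405), and each call was lost on leaving out some of the arrays. Cdh5, the cadherin of endothelial junctions, was under the dim limit or empty on every array, at 2.61 at most.

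Of 13 blood and mast cell markers, 10 had a probe, Cd68, Csf1r and Gata1 among them, and summed to 188 and 205 on the E11.5 PGC arrays, 201 and 179 on those of Day3, 211 and 196 on those of Day6, and 380 and 388 on those of EG cells. At Day3 and at Day6 0 rose and 1 fell, and in EG cells 1 rose and 1 fell. The one that fell each time was Tyrobp, an adaptor of myeloid and natural killer cells, at 43.3 and 34.6 on the E11.5 PGC arrays, 11.4 and 12.3 on those of Day3, 11.1 and 11.7 on those of Day6, and 11.2 and 10.4 on those of EG cells. Its changes were -1.70, -1.76 and -1.84 (adjusted p = 0.0262, 0.00916 and 0.00793), the Day6 call lost without E11.5 PGC replicate 1 and the others without several arrays each. Cd68, a lysosomal protein of macrophages, rose in EG cells (2.10 ± 0.40, adjusted p = 0.0196, lost without any array of the 2 groups) and carries the higher sums there, at 283 and 307 against 64.2 and 73.6 on the E11.5 PGC arrays. Ptprc, the leukocyte marker CD45, lay between 2.81 and 5.74 on all arrays. The part of such cells in the values of Cxcr4 and Kit was not tested.

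Cxcl12, the ligand of Cxcr4, was also highest in E11.5 PGC. It read 20.2 and 24.7 on the E11.5 PGC arrays, 5.02 and 4.91 on those of Day3, 9.27 and 3.96 on those of Day6, and 9.90 and 6.06 on those of EG cells. Both E11.5 PGC arrays exceeded all 6 others. The Day3 arrays lay just above the dim limit of 4.24 and Day6 replicate 2 below it. The summed gonadal somatic cell markers read 104 and 134 on the E11.5 PGC arrays and between 82.5 and 105 on the others. The part of somatic cells, which secrete this ligand, in the Cxcl12 values was not tested.

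Cxcl12 fell at Day6 against E11.5 PGC (3.69-fold, log2 change -1.88 ± 0.45, adjusted p = 0.0469, and 0.0212 with the block). This call was lost without either E11.5 PGC array (adjusted p = 0.156 and 0.201), either Day3 array (0.0685), Day6 replicate 2 (0.105, where the change was -1.27) or either EG array (0.0844). The blocked call was lost without E11.5 PGC replicate 2 (0.112) or Day6 replicate 2 (0.0845). The change at Day3 was -2.17 ± 0.45 (adjusted p = 0.0666), which was called with the block (0.0298) and on the scale of log2(intensity + 2), where it was -1.81 (0.0413). The change in EG cells was -1.53 ± 0.45 (adjusted p = 0.0744), called with the block, where it was -1.69 (0.0380), and on the scale with the constant, where it was -1.31 (0.0471). Within the series the change was -2.01 in A and -2.33 in B at Day3, -1.12 and -2.64 at Day6, and -1.38 in A for EG cells. No difference was called between the cultured groups: Day6 against Day3 gave 0.29 (adjusted p = 0.983), EG cells against Day3 0.64 (0.565) and EG cells against Day6 0.35 (0.817). The order of levels from high to low was E11.5 PGC, EG, Day6 and Day3.

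**Figure D3:**
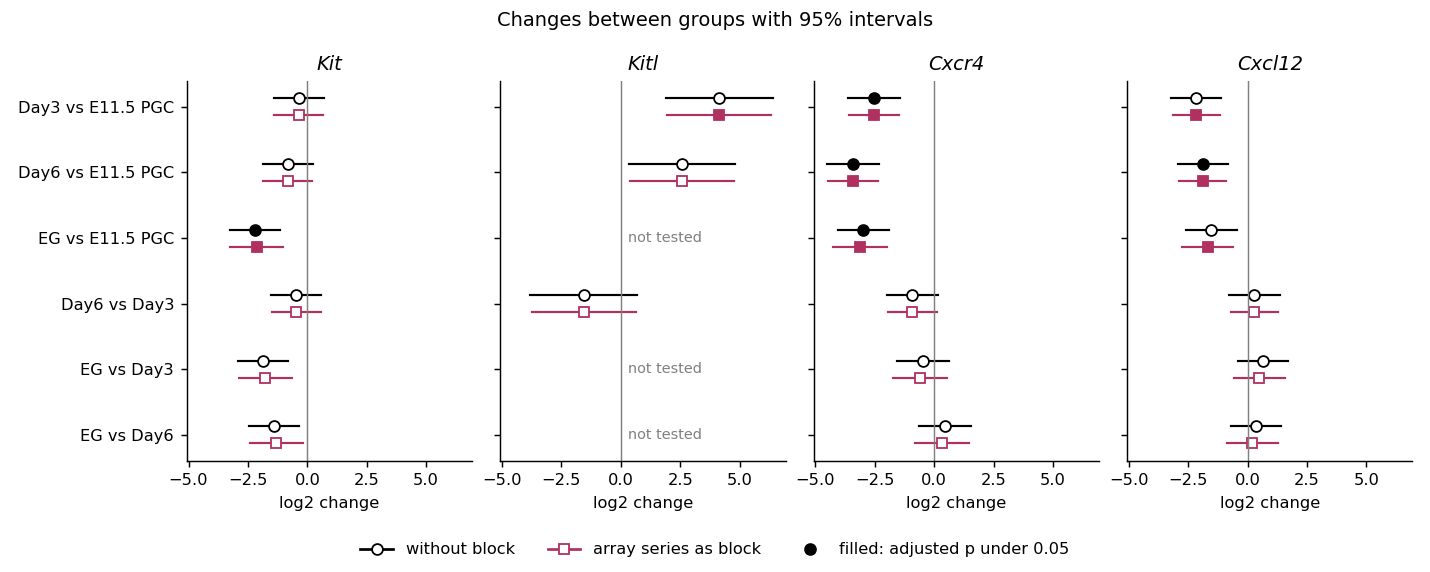
Log2 change with 95% interval of each gene in the 6 comparisons, the second group named being subtracted from the first, without a block (black circles) and blocked by array series (red squares). Filled symbols have an adjusted p under 0.05. Intervals of Cxcr4 against E11.5 PGC lie below 0 at Day3, at Day6 and in EG cells, and Kitl could not be tested against EG cells.

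Counted over the 4 genes, 1 of 4 was called at Day3 against E11.5 PGC (Cxcr4, lower), where 2.08% of 20678 probes were called, 0.754% lower. At Day6 2 of 4 were called (Cxcr4 and Cxcl12, both lower), against 8.61% of 20136 probes, 4.28% lower. In EG cells 2 of the 3 that could be tested were called (Kit and Cxcr4, both lower), against 11.2% of 20761 probes, 5.61% lower. In the fit blocked by series the counts were 3 of 4 at Day3 (1 higher and 2 lower), against 8.34% of probes, 2 of 4 at Day6 against 23.8%, and 3 of 3 in EG cells against 23.6%. Day6 against Day3 gave 0 of 4, where 0% of 20015 probes were called by limma, though 1783 had an unadjusted p under 0.05, and 0 of 4 with the block, against 1.80%. EG cells against Day3 gave 0 of 3 (1.42% of 20554 probes, and 5.68% with the block), and EG cells against Day6 0 of 3 (0.169% of 20103 probes, and 1.96% with the block).

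Set against each other over the arrays, Cxcr4 and Cxcl12 had a Pearson r of 0.73, Kit and Cxcr4 0.62, Kit and Cxcl12 0.14, and Kitl had negative values with Kit (-0.53), Cxcr4 (-0.75) and Cxcl12 (-0.67) over its 6 arrays. These describe 8 or 6 arrays that share groups. The 3 genes closest to Cxcr4 were Lypd1 (0.990), Riox2 (0.982) and Nudt6 (0.980), and Riox2 read 640 and 564 on the E11.5 PGC arrays, 243 and 206 on those of Day3, 122 and 182 on those of Day6, and 156 and 153 on those of EG cells. Those closest to Cxcl12 were Enpp2 (0.980), Samhd1 (0.966) and Rgs16 (0.960). Enpp2, which encodes the secreted enzyme autotaxin, read 54.8 and 66.1 in E11.5 PGC and between 0.826 and 8.36 on the 6 other arrays.

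Genes of Cxcr4 signalling were read from a list of 44 that includes Cxcr4 and Cxcl12, and 41 had a probe. At Day3, 39 were tested, 2 rose, 3 fell and 34 did not pass. At Day6 the counts were 2, 5 and 31 of 38, and in EG cells 4, 7 and 28 of 39. With the block 3 rose and 5 fell at Day3, 4 rose and 12 fell at Day6, and 5 rose and 11 fell in EG cells. Those that fell include Cxcr4 in all 3 comparisons and Cxcl12 at Day6, and both genes in all 3 with the block. The share of all probes that rose was 1.33%, 4.34% and 5.57% in these comparisons, and the share that fell 0.754%, 4.28% and 5.61%. List medians were -0.24, -0.22 and -0.29, beside -0.13, -0.16 and -0.16 for all probes. Between the cultured groups 0 of the list were called without the block. With it the GTPase gene Rac2 was higher at Day6 (3.10, adjusted p = 0.0416) and in EG cells (2.57, 0.0463) than at Day3, and in EG cells against Day3 Rgs3 (1.77, 0.0438) and Cd74 (0.99, 0.0451) were higher and Gng12 (-1.28, 0.0328) lower. The Day3 values of Rac2 were dim, at 2.08 and 1.40.

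Ackr3, the atypical receptor that binds Cxcl12 and removes it without G protein signalling, was high where Cxcr4 was low. Its intensity was 17.7 and 20.8 on the E11.5 PGC arrays, 92.9 and 122 on those of Day3, 290 and 267 on those of Day6, and 89.5 and 125 on those of EG cells. Every cultured array exceeded both E11.5 PGC arrays, and Day6 overlapped no other group. Against E11.5 PGC it rose by 2.47 ± 0.30 on the log2 scale at Day3 (adjusted p = 0.0139), 3.86 ± 0.30 at Day6 (0.00164) and 2.46 ± 0.30 in EG cells (0.00517). The Day6 call held without any single array. The Day3 call was lost without any of its own 4 arrays (adjusted p up to 0.107) and the EG call without EG replicate 2 (0.0642), and with the block the 3 adjusted p were 0.00507, 0.000630 and 0.00285.

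Dpp4, the surface peptidase CD26 that cleaves and inactivates Cxcl12, read 8.31 and 7.80 on the E11.5 PGC arrays, 21.3 and 48.7 on those of Day3, 96.6 and 261 on those of Day6, and 38.7 and 69.0 on those of EG cells. All cultured arrays lay above E11.5 PGC. It rose by 4.30 ± 0.59 on the log2 scale at Day6 (adjusted p = 0.00737) and by 2.68 ± 0.59 in EG cells (0.0313). At Day3 the change of 2.00 was called only with a block (adjusted p = 0.170 without, 0.0431 with the array series). The Day6 call was lost without either E11.5 PGC array (highest adjusted p 0.0574) and the EG call without any of its 4 arrays (highest 0.214).

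Rgs16, a regulator that shortens G protein signalling, fell with Cxcl12. It read 31.5 and 32.8 on the E11.5 PGC arrays, 3.41 and 5.09 on those of Day3, 8.78 and 4.67 on those of Day6, and 9.66 and 8.69 on those of EG cells, with no overlap between E11.5 PGC and the rest. The log2 changes were -2.95 ± 0.37 at Day3 (adjusted p = 0.0154), -2.33 ± 0.37 at Day6 (0.0124) and -1.81 ± 0.37 in EG cells (0.0262), with 0.00792, 0.00634 and 0.0174 with the block. Each was lost in some fits that left out an array, with adjusted p up to 0.128, 0.0824 and 0.176: at Day3 without any array of E11.5 PGC, Day3 or EG, at Day6 without either E11.5 PGC array, and in EG cells without any array of the 2 groups. Sdc4, a heparan sulfate proteoglycan that binds Cxcl12, rose at Day3 by 1.87 ± 0.34 (adjusted p = 0.0444), at 301 and 316 against 108 and 66.4 in E11.5 PGC, a call lost on leaving out any array (up to 0.244).

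**Figure D4:**
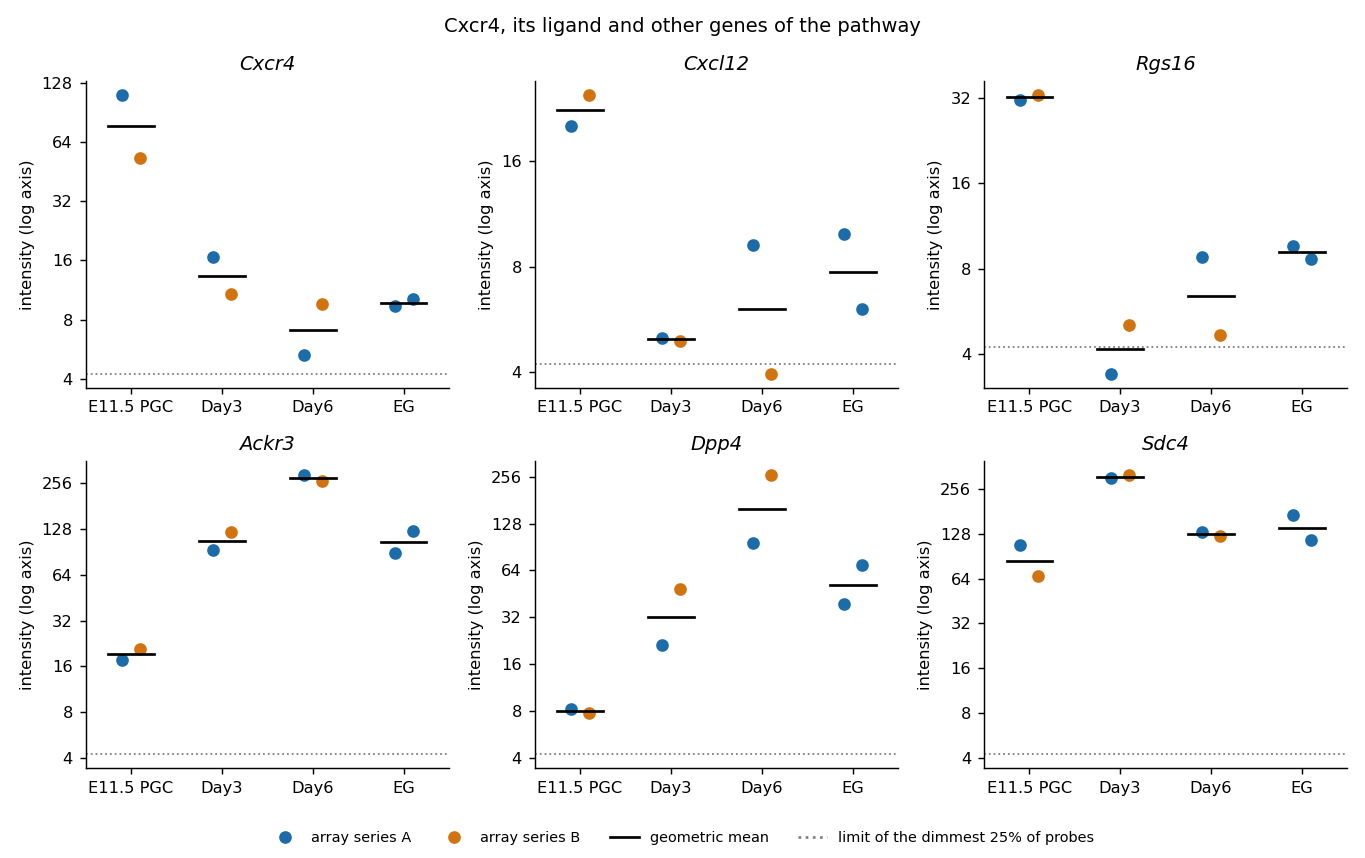
Intensity of Cxcr4, Cxcl12, Rgs16, Ackr3, Dpp4 and Sdc4 on each array (log axes, a scale of its own per panel). Points are arrays, coloured by array series, bars are geometric means and the dotted line is the limit of the dimmest 25% of probes. Cxcr4, Cxcl12 and Rgs16 were highest in E11.5 PGC, while Ackr3 and Dpp4 were lowest there and highest at Day6.

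Among 23 chemokine receptors, 21 had a probe and 12 or 13 could be tested against E11.5 PGC. At Day3, at Day6 and in EG cells 1 rose and 1 fell, in each case Ackr3 and Cxcr4. With the block a further receptor fell in each comparison, namely Cx3cr1 at Day3 (-1.39, adjusted p = 0.0369) and Day6 (-1.47, 0.0148) and Ccr7 in EG cells (-1.48, 0.0434). Ccr7 was dim on every array, at 3.88 at most. Cx3cr1 read 6.52 and 14.1 in E11.5 PGC, against 3.00 and 4.45 at Day3 and dim values of 3.40 and 3.55 at Day6. Of 38 chemokine ligands, 31 had a probe. At Day3 1 of 25 rose and 1 fell. Cxcl5 changed by 3.00 ± 0.48 (adjusted p = 0.0406), at 10.7 and 15.5 against dim values of 1.75 and 1.48 in E11.5 PGC. Cx3cl1, a membrane-tethered chemokine, changed by -3.46 ± 0.53 (adjusted p = 0.0264), to dim values of 1.73 and 0.682, against 9.53 and 15.0 on the E11.5 PGC arrays. The Day3 call of Cxcl5 was lost without any of the arrays of E11.5 PGC, Day3 or EG (up to 0.238), and that of Cx3cl1 without either E11.5 PGC array, Day3 replicate 2 or either EG array (up to 0.188). At Day6 0 of 23 rose and 1, Cxcl12, fell, and in EG cells 0 of 23 rose and 1, Cx3cl1, fell (-2.15 ± 0.53, adjusted p = 0.0433), a call lost without any of its 4 arrays (up to 0.252). With the block 1 ligand rose and 3 fell at Day3, 1 rose and 4 fell at Day6, and 0 rose and 3 fell in EG cells, Cxcl12 among those that fell each time. Between the cultured groups neither list held a call without the block, and with it Cxcl5 was lower at Day6 than at Day3 (-2.99, adjusted p = 0.0442).

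Kit signalling was read from a list of 42 genes that includes Kit and Kitl, 36 of them with a probe. At Day3 0 of 35 passed the test, and with the block 2 rose and 6 fell. At Day6 3 of 34 rose and 7 fell (5 and 15 with the block), and in EG cells 4 of 35 rose and 7 fell (4 and 14), against the shares of all probes given above. Kit itself is among those that fell in EG cells in both fits, and Kitl among those that rose at Day3 with the block. The list medians were -0.15, -0.45 and -0.56. Ptpn6, the phosphatase SHP-1 that dampens Kit signalling, fell by 2.56 ± 0.30 on the log2 scale at Day6 (adjusted p = 0.00494) and by 2.52 ± 0.30 in EG cells (0.00517). It read 346 and 374 on the E11.5 PGC arrays, 179 and 114 on those of Day3, 55.7 and 67.2 on those of Day6, and 62.7 and 62.9 on those of EG cells, so that no cultured array reached E11.5 PGC. Its Day6 call held without any single array, and its EG call was lost without either EG array (up to 0.0624).

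The kinase gene Akt1, downstream of PI3 kinase, fell in EG cells by 2.43 ± 0.43 on the log2 scale (adjusted p = 0.0161), at 59.4 and 52.5 against 208 and 434 in E11.5 PGC. Foxo1, a transcription factor that Akt kinases keep out of the nucleus, fell at Day6 by 2.62 ± 0.42 (adjusted p = 0.0122), at 38.9 and 22.1 against 224 and 144 on the E11.5 PGC arrays. The adaptor Gab1 rose in EG cells by 2.06 ± 0.30 (adjusted p = 0.00874), at 817 and 747 against 198 and 177 on the E11.5 PGC arrays. These changes were not particular to the group named. Akt1 read 109 and 174 at Day3 and 59.1 and 80.1 at Day6. Gab1 read 584 and 396 at Day3 and 779 and 624 at Day6, and Foxo1 read 68.6 and 55.3 in EG cells. The calls of Akt1 and Gab1 were lost without E11.5 PGC replicate 2 or either EG array (adjusted p up to 0.131 and 0.0835), and that of Foxo1 without either E11.5 PGC array (up to 0.0845).

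Stat5a and Pik3r1, the regulatory subunit of PI3 kinase, were dim on both E11.5 PGC arrays. Stat5a, a transcription factor activated by cytokine receptors, changed by 2.02 ± 0.47 on the log2 scale at Day6 (adjusted p = 0.0427) and by 2.44 ± 0.47 in EG cells (0.0205), and Pik3r1 by 2.01 ± 0.42 at Day6 (0.0313). Stat5a read 10.1 and 6.69 at Day6 and 8.67 and 14.1 in EG cells, against 1.36 and 3.02 in E11.5 PGC. The Day6 call of Stat5a was lost on leaving out any array (up to 0.194), its EG call without E11.5 PGC replicate 1 or either EG array (up to 0.159), and that of Pik3r1 without E11.5 PGC replicate 2, Day6 replicate 1 or either EG array (up to 0.145). Between cultured groups the list held 1 call, the adaptor Grb7, higher in EG cells than at Day3 by 1.68 ± 0.29 (adjusted p = 0.0474), lost on leaving out any array (up to 0.326). With the block that call stood (0.0246), Grb7 was also higher in EG cells than at Day6 (2.34, adjusted p = 0.0246), and Foxo1 was lower at Day6 than at Day3 (-1.24, 0.0441).

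Of 13 genes for receptors of Kit's class and their ligands, 12 had a probe. At Day3 0 of 11 passed the test, at Day6 2 of 11 rose and 0 fell, and in EG cells 0 of 10 rose and 1, Kit itself, fell. With the block 1 rose at Day3 (Kitl), 2 rose and 1 fell at Day6, and 1 rose and 2 fell in EG cells. The list medians were -0.31, 0.31 and -0.10. Those that rose at Day6 were ligands. Il34, a ligand of the Csf1 receptor, read 55.0 and 89.1 at Day6 against 12.6 and 10.6 in E11.5 PGC (2.60 ± 0.33, adjusted p = 0.00571), and 18.0 and 19.9 in EG cells. Pdgfc, a ligand of the PDGF receptors, read 24.9 and 104 at Day6 against 4.36 and 6.55 in E11.5 PGC (3.25 ± 0.69, adjusted p = 0.0318), and 15.6 and 13.9 in EG cells. The Il34 call was lost without E11.5 PGC replicate 2 (0.0504), and the Pdgfc call without either E11.5 PGC array, Day6 replicate 2 or either EG array (up to 0.166). With the block Pdgfc also rose in EG cells (2.10, adjusted p = 0.0121), while Pdgfb fell at Day6 (-1.19, 0.0217) and Pdgfa in EG cells (-1.22, 0.0255). Only with the block were there calls between cultured groups: Pdgfc was higher at Day6 (3.64, 0.0187) and in EG cells (2.48, 0.0236) than at Day3, and Il34 was higher at Day6 than at Day3 (2.02, 0.0356) and lower in EG cells than at Day6 (-1.88, 0.0471).

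**Figure D5:**
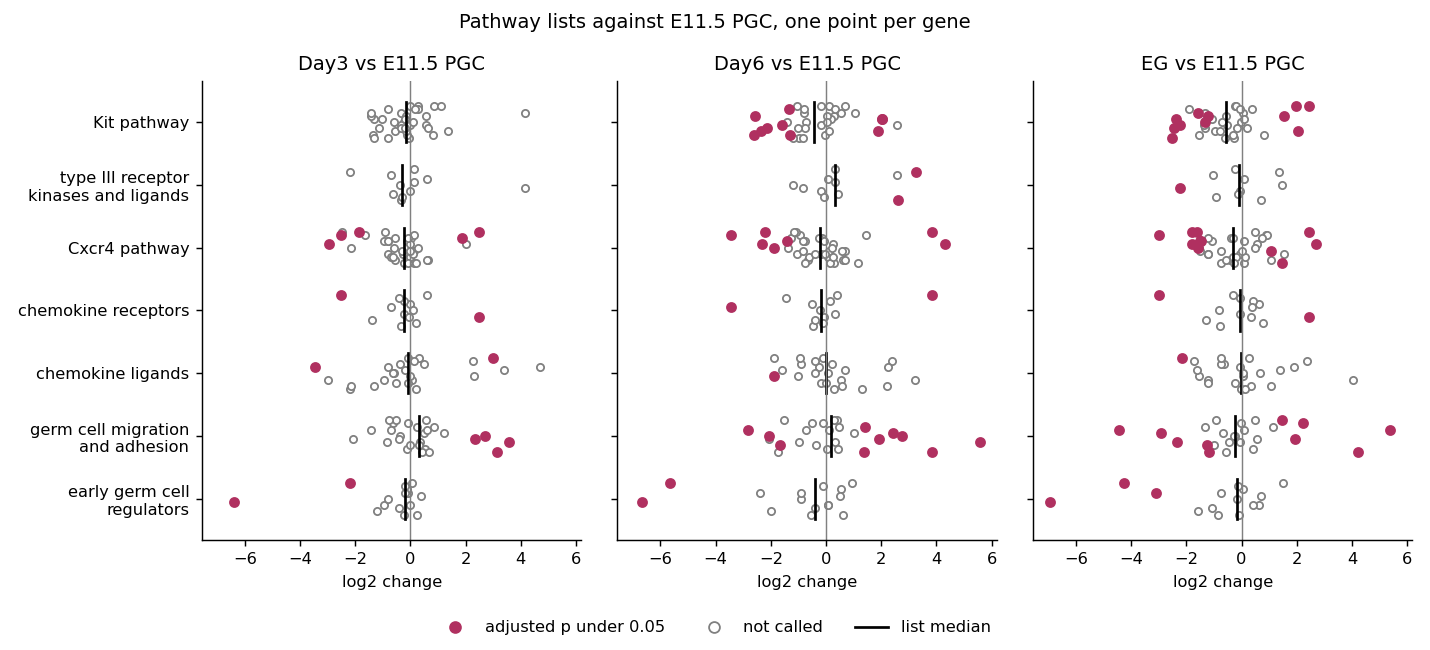
Log2 change against E11.5 PGC of every tested gene of the 7 pathway lists, at Day3, at Day6 and in EG cells. Each point is a gene, filled where the adjusted p is under 0.05, and bars are list medians. Changes of both directions occur in most lists, and the list medians lie between -0.56 and 0.32.

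Genes of germ cell migration and adhesion outside both receptor systems moved in both directions. Of 31, 28 had a probe. At Day3 4 of 27 rose and 0 fell, at Day6 7 of 26 rose and 3 fell, and in EG cells 5 of 26 rose and 5 fell, with medians of 0.32, 0.19 and -0.25. Over all probes 1.33% rose and 0.754% fell at Day3, 4.34% rose and 4.28% fell at Day6, and 5.57% rose and 5.61% fell in EG cells. With the block 5 of the list rose and 2 fell at Day3, 8 rose and 7 fell at Day6, and 6 rose and 6 fell in EG cells. Gja1, the gap junction protein connexin 43, rose by 3.57 ± 0.50 on the log2 scale at Day3 (adjusted p = 0.0205), 5.57 ± 0.50 at Day6 (0.00225) and 5.38 ± 0.50 in EG cells (0.00262). It read 5.56 and 14.0 on the E11.5 PGC arrays, 146 and 75.1 on those of Day3, 389 and 450 on those of Day6, and 400.4 and 337 on those of EG cells. The tetraspanin gene Cd81 rose by 3.15, 3.85 and 4.23 in the same comparisons (adjusted p = 0.0272, 0.00556 and 0.00427). The Day3 calls of both were lost in 6 of the 8 fits that left out an array (up to 0.107 and 0.183), as was the EG call of Cd81 in 1 of 8 (0.0539).

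Cd24a, a small surface glycoprotein gene, fell by 2.84 ± 0.41 on the log2 scale at Day6 (adjusted p = 0.00893) and by 4.44 ± 0.41 in EG cells (0.00262). It read 330 and 273 on the E11.5 PGC arrays, 157 and 80.2 on those of Day3, 45.7 and 38.7 on those of Day6, and 17.9 and 10.7 on those of EG cells. The FGF receptor gene Fgfr2 fell in EG cells by 2.91 ± 0.30 against E11.5 PGC (adjusted p = 0.00308) and by 3.23 ± 0.30 against Day3 (0.00930). Cd24a and Fgfr2 were the 2 of 25 genes called in EG cells against Day3, both lower, and with the block Itgav (-1.23, adjusted p = 0.0287) and Ror2 (-1.02, 0.0453) were lower too. Epcam, an epithelial adhesion molecule, fell at Day6 by 2.08 ± 0.43 (adjusted p = 0.0294) and read 2326 and 1719 in EG cells, against 2546 and 1633 in E11.5 PGC. Of 8 fits that each left out an array, Cd24a was called at Day6 in 6 and against Day3 in 3, Fgfr2 against Day3 in 5 and Epcam in 2. With the block Fgfr2 (-1.97, adjusted p = 0.0300) and Epcam (-1.69, 0.0429) were also lower at Day6 than at Day3 and Lamc1, a laminin chain, was higher (1.18, 0.0437), while in EG cells against Day6 Epcam was higher (1.73, 0.0471) and Itgav lower (-1.22, 0.0471).

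Last, 17 of 18 transcription and RNA regulators of early germ cells and of the tissues around them had a probe. At Day3 0 of 15 rose and 2 fell, as at Day6, and in EG cells 0 rose and 3 fell, with medians of -0.20, -0.41 and -0.16. With the block Gata2 also fell at Day6 (-2.38, adjusted p = 0.0109), and Sox17 (1.73, 0.0319) and Snai1 (0.73, 0.0464) rose in EG cells. Sox17 read 3.16 and 7.17 in EG cells against 1.29 and 2.15 in E11.5 PGC, and all of these but EG replicate 2 were dim. Dnd1, an RNA-binding protein that germ cells need to survive, read 2140 and 1555 on the E11.5 PGC arrays, 568 and 288 on those of Day3, 43.0 and 30.7 on those of Day6, and 89.4 and 104 on those of EG cells. Its changes were -2.17, -5.65 and -4.24 (adjusted p = 0.0453, 0.00137 and 0.00262), and the Day3 call was lost in 6 of 8 fits that left out an array (up to 0.252). The homeobox gene Lhx1 fell by 6.39 ± 0.36 at Day3 (adjusted p = 0.00223), at 4.68 and 5.25 against 513 and 335 in E11.5 PGC, and its 3 calls against E11.5 PGC held without any single array. Between the cultured groups the list held calls with the block alone: Dnd1 was lower at Day6 (-3.48, adjusted p = 0.0151) and in EG cells (-2.39, 0.00982) than at Day3, and Gata2 lower in EG cells than at Day3 (-3.51, 0.0162).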

How the data were processed

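Gene expression was measured on TORAY one-colour arrays with Cy5-labelled aminoallyl aRNA, per the labels' protocols. The deposited values are linear spot intensity, which the authors scaled so that each array's median lies near 20. How background was corrected, how arrays were scaled and why 11674 entries are empty is not given in the sources used here. Intensity was converted to log2 with no further normalization, and empty cells stayed missing. One symbol was given for 16631 of 23473 probes (12622 current, 3947 replaced through synonyms, 62 kept as given), and 6842 had none. The brightest probe stands for a gene.

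Group differences were fitted with limma 3.58.1 in R 4.3.3 on all 8 arrays, by moderated tests (two-sided), and p-values were adjusted by Benjamini-Hochberg over all probes with values on both arrays of both groups. Replicate numbers of E11.5 PGC, Day3 and Day6 follow the array series. Across 19524 probes, replicate deviations correlated between these groups (r = 0.620, 0.547 and 0.694) and not with EG (-0.025, 0.005 and 0.061), so a fit with the series as a block stands beside the results whose calls it changed; for EG it assumes one series difference for all groups.

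The members, the gene lists and the settings were chosen with earlier results of these data known. Named genes are the members, per comparison the 2 most raised and the 2 most lowered of the called genes in each pathway list, the 3 of each marker list with the highest mean log2 intensity, and the 3 most correlated with each member. Other marker genes (such as Lhx9, Dcn, Utf1, Cldn5 and Tyrobp) and some genes called only with the block were named after their values were seen. Alternatives were quantile normalization, an added constant of 2, removal of the dimmest 25% of probes (5924), trend and robust variance, blocks, 4 arrays alone and leaving out each array. The fit was tested on simulated data.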

Additional observations from a re-analysis of the deposited data

How the results depend on the processing

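The 4 genes kept the direction of every change against E11.5 PGC under all settings, with 1 exception: Kit at Day3, an uncalled change, was 0.055 in the fit blocked by series without Day3 replicate 2. Cxcr4 at Day6 was called under every setting. Uncalled changes that turned round were Kit in Day6 against Day3 (between -1.07 and 0.14 with an array left out, the highest without Day6 replicate 1), Cxcl12 in the same comparison (between -0.33 and 0.90, the lowest without Day6 replicate 1) and Cxcl12 in EG against Day6 (between -0.26 and 0.97, the lowest without Day6 replicate 2). Where a call changed, the cause was not tested, beyond the fewer arrays of some fits. No background level is given in the sources used here, so how far dim values (Kitl in E11.5 PGC, Cxcl12 after culture) stood above it was not tested. Blocked fits without an array, all settings for Ackr3, Dpp4 and Rgs16, and the fibroblast sum without S100a4 and Thy1 were chosen after seeing the data.

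Counts over all probes moved more. Against E11.5 PGC, 431 probes were called at Day3 (660 with the added constant, 1725 with the array series and 804 with the replicate number as a block, 67 from the 4 arrays alone, and 4 to 555 with an array left out). At Day6 there were 1734 (4790 and 2850 with these blocks, 578 from 4 arrays, 430 to 1652 with an array left out), and in EG cells 2321 (4905, 3951, 3804, and 232 to 2809). Of the calls, 873 were higher and 861 lower at Day6, against 1913 and 2877 with the series block, and in EG cells 1157 and 1164, against 1919 and 2986. Day6 against Day3 had 0 calls (56 with the constant, 34 with trend and robust variance, 361 and 78 with the blocks, 0 on leaving out any array). EG against Day3 had 292 (534, 451, 1167 and 849, then 193 from 4 arrays, and 0 to 422 with an array left out). EG against Day6 had 34 (145, 98, 395 and 241, then 0 from 4 arrays, 89 without the dimmest probes, and 0 to 6 with an array left out).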
